A study of Homo sapiens with 9 samples.

Results

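The kinetochore and centromere genes described here are 47 genes, chosen by name for the complexes their proteins belong to. The rule uses no measured value, but the list was drawn up with earlier results of these data known. All 47 had an entry among the 25382 in the table, and all 47 were tested. RNA was sequenced from 501mel, an established human melanoma line, 24 h after the cells were lipofected with a DsiRNA. A DsiRNA is a duplex that the nuclease Dicer trims to an siRNA, which then directs the cleavage of matching mRNA. The groups were DsiRNA 13.6 against TBX3, DsiRNA 13.8 against TBX3, and the control DsiRNA NC1, with 3 libraries each, called biological replicates in the labels. All groups share the line, the transfection and the time, so no untransfected cells stand beside them, and the p-values measure the spread between cultures of 1 line. The comparisons ask what lowering the T-box transcription factor TBX3 does to gene expression.

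At mitosis each chromosome is held by a kinetochore, a protein assembly built on a stretch of chromatin marked by the histone variant CENP-A. An inner layer, the constitutive centromere-associated network, sits on that chromatin, and an outer layer with the NDC80 and MIS12 complexes binds spindle microtubules. The spindle checkpoint delays anaphase while kinetochores are unattached, the chromosomal passenger complex corrects wrong attachments, and condensin compacts the chromosomes. Many of these genes are transcribed mainly in late S phase, G2 and mitosis, and their mRNA is known as a mark of dividing cells. In RNA from whole cultures, fewer cells in those phases and less RNA per cell cannot be told apart.

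The libraries held 38105026 to 52272147 counted reads. Levels are given as CPM, a counts-per-million level after TMM scaling of the libraries, and a change as a log2 fold change ± SE. "Rose", "fell", "higher" and "lower" with a call mean an adjusted p under 0.05 over the 14731 genes tested, from the quasi-likelihood test of edgeR, adjusted by the Benjamini-Hochberg method. The targeted gene TBX3 stood at 46.4, 41.0 and 39.4 CPM with 13.6 and 36.1, 33.7 and 36.2 CPM with 13.8, against 88.6, 83.8 and 84.0 CPM in the controls. It fell by 50.6% with 13.6 and fell by 58.6% with 13.8. All 7 melanocytic markers were detected, with 2 called higher and 3 lower with 13.6, and 3 higher and 3 lower with 13.8. Of all tested genes, 24.9% were higher and 25.0% lower with 13.6, and 27.5% higher and 27.9% lower with 13.8. The summed level of these markers was 13800 to 15000 CPM with 13.6, 17300 to 18100 CPM with 13.8 and 13300 to 15300 CPM in the controls. TYRP1, a melanin enzyme, was the marker that added most to the sum with 13.8, at 7831 CPM against 3604 CPM in the controls, while MITF, the melanocyte transcription factor, fell by 49.1% with 13.8. The 5 fibroblast markers summed to 3.93 to 5.07 CPM with 13.6, 14.8 to 17.9 CPM with 13.8 and 4.43 to 5.98 CPM in the controls. Of the 4 tested, all but PDGFRB, 4 were called higher with 13.8 and 0 with 13.6, beside 27.5% and 24.9% of all tested genes. Their part in the results below was not tested. The 4 keratinocyte markers summed to 42.8 to 44.5 CPM with 13.6, 39.3 to 44.3 CPM with 13.8 and 41.0 to 46.2 CPM in the controls, nearly all of it KRT10, with KRT5 at 0 and KRT14 and KRT1 at no more than 1 read in any library. The 4 leukocyte and 3 endothelial markers each summed to at most 0.78 CPM in every library.

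The 2 DsiRNAs moved this machinery to different extents. With 13.8, 45 of the 47 genes fell and 1 rose, while 27.9% of all tested genes fell and 27.5% rose. With 13.6, 25 of the 47 fell and 4 rose, where 25.0% of all tested genes fell and 24.9% rose. Set directly against each other, 42 of the 47 were higher with 13.6 than with 13.8 and 0 were lower, where 30.9% of all tested genes were higher and 30.2% lower. That 0 stood with edgeR, DESeq2 and limma-voom alike, since the estimate was above 0 for 47 of 47 genes. The median log2 fold change of the 47 genes was −0.20 with 13.6, −1.19 with 13.8 and 0.86 between them, and that of all tested genes was −0.01, 0.01 and −0.02. With 13.8, 27 of the 47 fell below −1, that is to less than 1 part in 2 of the control, as did 4.32% of all tested genes; with 13.6 it was 0 of 47 and 4.99%.

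**Figure D1:**
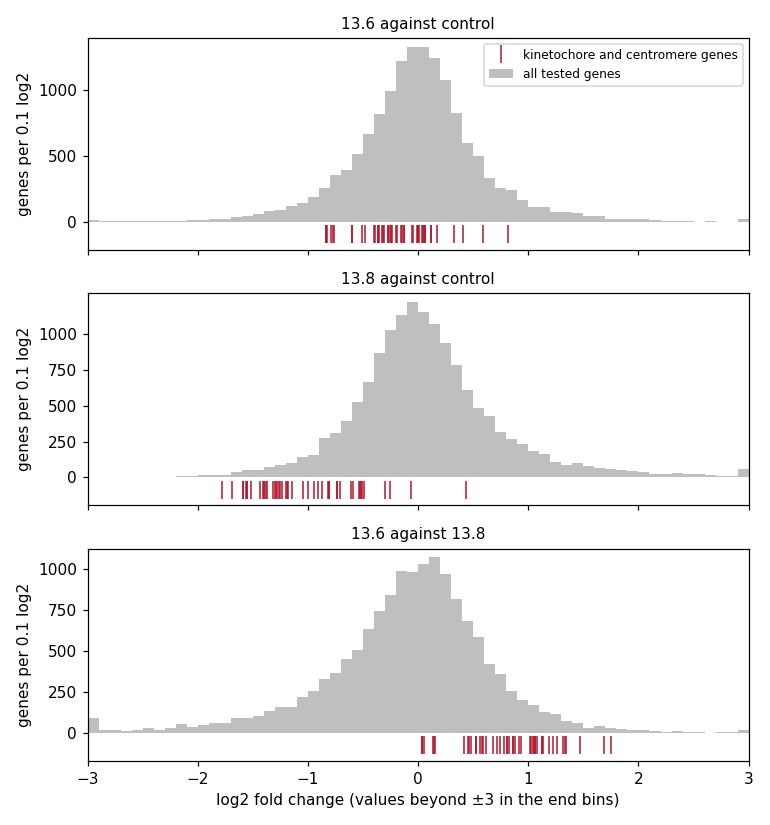
Histograms of log2 fold changes of all 14731 tested genes (grey, genes per bin of 0.1) with the 47 kinetochore and centromere genes as red ticks, for 13.6 against control, 13.8 against control and 13.6 against 13.8. The ticks lie on both sides of 0 in the first panel, nearly all left of 0 in the second and all right of 0 in the third.

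The reads of the 47 genes together show the same order. Their summed level was 3111 to 3218 CPM with 13.6 and 1690 to 1839 CPM with 13.8, against 3590 to 3670 CPM in the controls. As a share of all counted reads they took 0.304% to 0.315% with 13.6, 0.170% to 0.187% with 13.8 and 0.358% to 0.370% in the controls. No library of one group overlapped another in this sum. The mean of both DsiRNAs against control gave 42 genes lower and 2 higher (26.9% and 23.3% of all tested genes), and in many of them 13.8 supplied most of the difference.

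**Figure D2:**
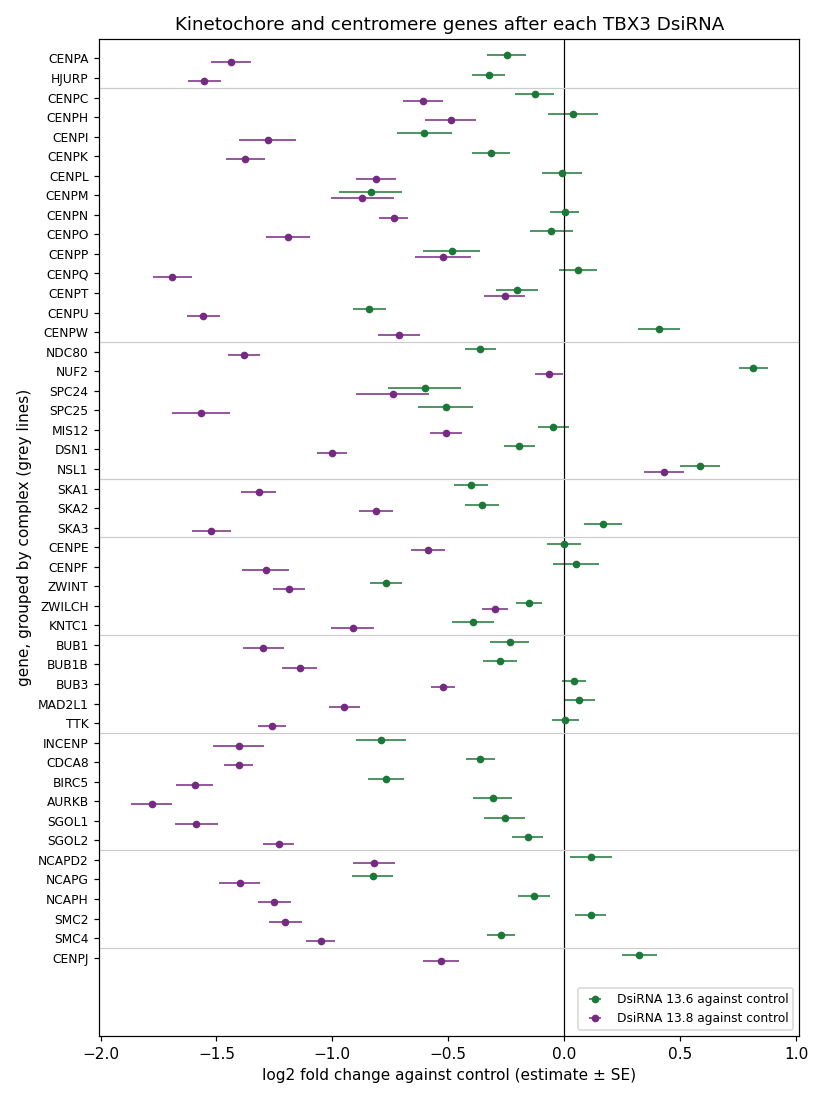
Log2 fold change against control (estimate ± SE) of each of the 47 genes with DsiRNA 13.6 (green) and DsiRNA 13.8 (purple), grouped by complex between grey lines. Every purple point lies left of its green point; NSL1 alone lies right of 0 with both, and CENPM, CENPP, CENPT and SPC24 have nearly the same value with both.

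Promoter sequences of 4 of the genes are given as examples and do not stand for the whole list. They are CENPA and CDCA8, which fell with both DsiRNAs, and NUF2 and NSL1, which did not. Cell-cycle genes of this kind often carry a CHR element, TTTGAA or TTCGAA, near the start site, where MuvB complexes act, and CCAAT boxes upstream, which NF-Y binds. The windows run from 250 bases before to 50 bases after the annotated start, on the gene's strand, and capitals mark both forms of the CHR element and CCAAT boxes on either strand.
CENPA (chr2:26785806-26786105, plus strand): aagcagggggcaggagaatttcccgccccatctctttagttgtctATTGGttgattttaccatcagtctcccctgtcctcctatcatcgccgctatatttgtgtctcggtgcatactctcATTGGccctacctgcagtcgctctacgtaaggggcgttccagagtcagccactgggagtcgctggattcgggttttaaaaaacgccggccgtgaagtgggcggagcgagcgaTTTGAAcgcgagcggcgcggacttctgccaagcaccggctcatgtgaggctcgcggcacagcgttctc
CDCA8 (chr1:37692266-37692565, plus strand): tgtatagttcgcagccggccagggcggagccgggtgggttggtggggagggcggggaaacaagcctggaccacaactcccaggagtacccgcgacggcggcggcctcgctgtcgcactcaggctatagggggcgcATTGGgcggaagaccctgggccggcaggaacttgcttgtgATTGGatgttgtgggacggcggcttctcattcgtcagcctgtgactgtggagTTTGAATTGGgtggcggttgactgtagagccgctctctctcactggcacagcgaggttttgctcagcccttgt
NUF2 (chr1:163321704-163322003, plus strand): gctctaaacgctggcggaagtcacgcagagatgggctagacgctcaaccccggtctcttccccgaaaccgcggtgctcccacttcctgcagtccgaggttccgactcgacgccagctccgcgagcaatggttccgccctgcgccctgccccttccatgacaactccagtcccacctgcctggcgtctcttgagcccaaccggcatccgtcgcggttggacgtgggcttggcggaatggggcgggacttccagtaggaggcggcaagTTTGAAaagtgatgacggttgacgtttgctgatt
NSL1 (chr1:212791728-212792027, minus strand): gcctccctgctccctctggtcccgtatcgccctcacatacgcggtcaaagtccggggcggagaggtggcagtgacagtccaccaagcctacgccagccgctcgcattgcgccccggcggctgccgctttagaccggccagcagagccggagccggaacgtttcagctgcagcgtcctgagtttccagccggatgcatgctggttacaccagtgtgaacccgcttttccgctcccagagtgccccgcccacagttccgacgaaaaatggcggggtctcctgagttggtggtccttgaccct

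These windows come from RefSeq on GRCh38.p14, which was matched by symbol to 39 of the 47 genes, in 47 windows. TTTGAA or TTCGAA stood in 24 of these 47 windows (51.1%), against 16.4% of all 35116 promoter windows, and CCAAT stood in 61.7%, against 34.6%. In CENPA and CDCA8 the TTTGAA begins 18 and 23 bases before the start site, and in NUF2 it begins at base 17 of the transcript. NSL1 holds neither motif, and nor do CENPI and DSN1, which fell with 13.8. AURKB and CENPQ, with the largest falls with 13.8, hold CCAAT and no TTTGAA or TTCGAA. The capitals TTTGAATTGG in CDCA8 are a TTTGAA and a reversed CCAAT that share bases. The T-box half-site GGTGTGA was found in 2 of the 47 windows (4.3%), those of MAD2L1 and SMC2, against 3.4% of all windows. With 13.8 the 23 genes with TTTGAA or TTCGAA had a median log2 fold change of −1.29 (−1.59 to −0.06) and the 16 without it −0.91 (−1.78 to 0.43). With 13.6 these medians were −0.25 and −0.20. Calls of lower with 13.8 covered 22 of the 23 and 15 of the 16, beside 27.9% of all tested genes. The split is given as a description, and a match is not evidence that a factor binds there.

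CENP-A itself, which marks the centromere, and HJURP, the chaperone that deposits it, fell together. CENPA stood at 26.3, 27.6 and 26.7 CPM with 13.6 and at 11.5, 11.5 and 12.4 CPM with 13.8, against 28.1, 33.4 and 34.3 CPM in the controls. No library of either DsiRNA reached the lowest control, and the 13.8 libraries were below the 13.6 libraries. CENPA fell by 0.25 ± 0.08 on the log2 scale with 13.6 and by 1.44 ± 0.09 with 13.8 (edgeR adjusted p = 0.0226 and 1.65e-08). The call with 13.6 did not hold when control replicate 2 or 3, or 13.6 replicate 1 or 3, was left out (log2 fold change −0.25 to −0.19, edgeR adjusted p = 0.0625 to 0.0737). HJURP fell to 62.9 ± 3.1 CPM with 13.6 and 26.9 ± 2.0 CPM with 13.8, against 78.9 ± 3.7 CPM in the controls (SD, n = 3 each). The 2 genes differed between the DsiRNAs by 1.19 ± 0.09 and 1.23 ± 0.07, higher with 13.6.

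The constitutive centromere-associated network holds 13 of the genes. With 13.8 all 13 fell, with a median of −0.81 and a range of −1.69 to −0.26, where 27.9% of all tested genes fell. With 13.6, 5 fell, 1 rose and 7 were not called, where 25.0% of all tested genes fell and 24.9% rose. CENPQ and CENPU encode partners in 1 sub-complex of the network, which also holds CENP-O and CENP-P, and they split. CENPQ stood at 45.4, 42.8 and 45.1 CPM with 13.6 and at 12.5, 12.6 and 14.6 CPM with 13.8, against 39.3, 42.0 and 46.6 CPM in the controls. Its 13.6 libraries lay within the range of the controls (0.06 ± 0.08), while the 13.8 libraries were far below (−1.69 ± 0.09, edgeR adjusted p = 4.6e-09). The difference between the DsiRNAs, 1.75 ± 0.09, was the largest of the 47 genes. CENPU stood at 50.3, 48.9 and 50.9 CPM with 13.6 and at 32.0, 27.3 and 32.1 CPM with 13.8, against 88.3, 93.1 and 87.5 CPM in the controls. Here both DsiRNAs were below every control, by 0.84 ± 0.07 with 13.6 and 1.56 ± 0.07 with 13.8 (edgeR adjusted p = 6.03e-07 and 2.16e-09). CENPO, the third partner, fell with 13.8 (−1.19 ± 0.09) and was not called with 13.6 (−0.06 ± 0.09).

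CENPW, which encodes a histone-fold protein that binds centromeric DNA as a dimer with CENP-T, was called in opposite directions. Its levels were 35.5, 40.3 and 40.3 CPM with 13.6 and 15.8, 18.2 and 19.4 CPM with 13.8, against 27.6, 28.2 and 31.7 CPM in the controls. The 13.6 libraries were above every control and the 13.8 libraries below every control. CENPW rose by 0.41 ± 0.09 with 13.6 and fell by 0.71 ± 0.09 with 13.8 (edgeR adjusted p = 0.00205 and 2.21e-05), and the difference of 1.12 ± 0.09 was called as well (edgeR adjusted p = 2.67e-07). Its partner CENPT stood at 23.5 ± 2.2 CPM with 13.6 and 22.7 ± 2.0 CPM with 13.8, against 27.1 ± 1.6 CPM (SD, n = 3 each). The call of CENPT with 13.8 (−0.26 ± 0.09) did not hold when control replicate 2, or 13.8 replicate 1 or 2, was left out (−0.24 to −0.20, edgeR adjusted p = 0.0821 to 0.0987). CENPT with 13.6 (−0.20 ± 0.09) was not called with all libraries, and was called without 13.6 replicate 2 (−0.28, edgeR adjusted p = 0.0367), under scaling by library totals (−0.24, edgeR adjusted p = 0.0375) and with a replicate block (−0.21, edgeR adjusted p = 0.0329).

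Other genes of the network fell to overlapping levels with both DsiRNAs. CENPM, which joins the CENP-H and CENP-I assembly, stood at 20.3, 24.6 and 20.6 CPM with 13.6 and 18.1, 21.4 and 24.4 CPM with 13.8, against 32.9, 37.3 and 46.7 CPM in the controls. The DsiRNA groups overlap each other and both lie below the controls (−0.83 ± 0.14 with 13.6, −0.87 ± 0.14 with 13.8). CENPP, a low gene at 5.29 ± 0.61 CPM with 13.6 and 5.17 ± 0.39 CPM with 13.8 against 7.42 ± 0.62 CPM in the controls (SD, n = 3 each), behaved likewise. For CENPM the difference between the DsiRNAs was 0.04 ± 0.14 and for CENPP 0.04 ± 0.12, and neither was called (edgeR adjusted p = 0.832 and 0.809). CENPI (−0.60 and −1.28) and CENPK (−0.32 and −1.38) fell with both, more with 13.8. CENPC, the scaffold that links CENP-A chromatin to the outer kinetochore, fell with 13.8 only by the call (−0.61 ± 0.09) and stood at −0.13 ± 0.08 with 13.6; the difference between the DsiRNAs was called (0.48 ± 0.09). CENPH (−0.49), CENPL (−0.81) and CENPN (−0.74) fell with 13.8 and lay between −0.01 and 0.04 with 13.6, and their differences between the DsiRNAs were called too (0.53 to 0.80).

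**Figure D3:**
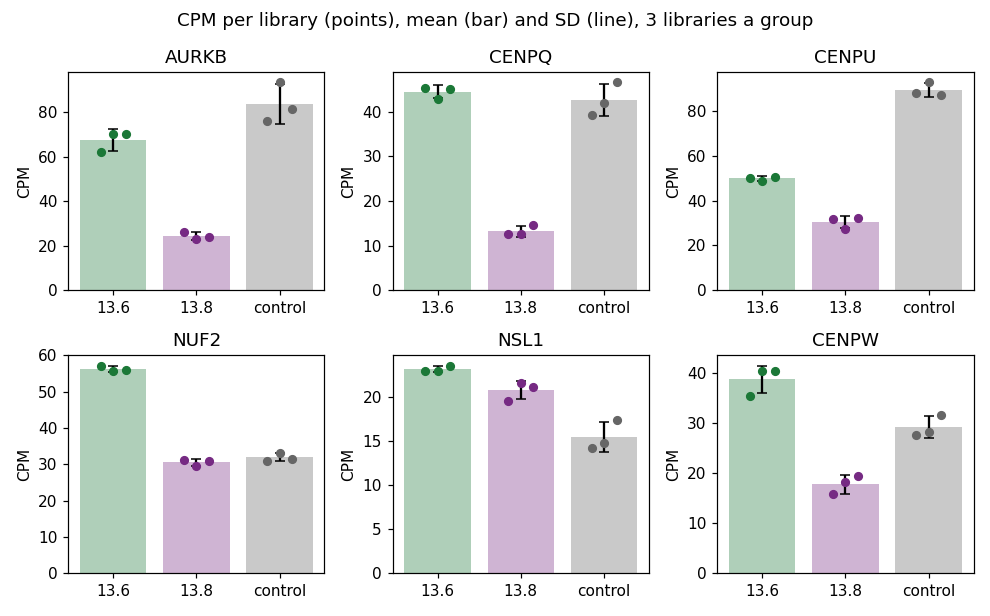
CPM in each library (points), mean (bars) and SD (lines) over 3 libraries for AURKB, CENPQ, CENPU, NUF2, NSL1 and CENPW with 13.6, 13.8 and the control. AURKB is lowest with 13.8 and also below every control with 13.6, CENPQ is low with 13.8 alone, CENPU is low with both DsiRNAs, NUF2 and CENPW are highest with 13.6, and NSL1 is above the control with both.

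The microtubule-binding NDC80 complex is a rod of 4 subunits, of which NDC80 and NUF2 form the end that grips the microtubule and SPC24 and SPC25 the end that faces the chromosome. NDC80 stood at 59.2, 57.4 and 64.6 CPM with 13.6 and 30.7, 28.2 and 30.4 CPM with 13.8, against 76.4, 74.5 and 82.0 CPM in the controls. It fell with both, by 0.36 ± 0.07 and 1.38 ± 0.07 (edgeR adjusted p = 6.29e-04 and 4.5e-09). NUF2, its direct partner, stood at 57.2, 55.6 and 55.8 CPM with 13.6 and 31.2, 29.4 and 30.9 CPM with 13.8, against 31.0, 33.2 and 31.6 CPM in the controls. The 13.6 libraries were above all others and the 13.8 libraries overlapped the controls. NUF2 rose by 0.82 ± 0.06 with 13.6 (edgeR adjusted p = 2.17e-07), the largest rise among the 47, and was the only one of them not called with 13.8 (−0.06 ± 0.06, edgeR adjusted p = 0.392). Its call in the mean of both DsiRNAs (0.38 ± 0.05) rests on 13.6. SPC25 fell with both (−0.51 ± 0.12 and −1.57 ± 0.12). SPC24, at 4.53 to 6.31 CPM with 13.6 and 4.73 to 5.85 CPM with 13.8 against 7.06 to 9.95 CPM in the controls, fell with both (−0.60 ± 0.16 and −0.74 ± 0.16), and the difference between the DsiRNAs was not called (0.14 ± 0.16).

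The ratio of reads of NUF2 to NDC80 within a library does not depend on how libraries are scaled. It was 0.965, 0.969 and 0.864 with 13.6 and 1.02, 1.04 and 1.02 with 13.8, against 0.406, 0.445 and 0.385 in the controls. Every DsiRNA library thus held about as many reads of each partner, and every control held more than 2 reads of NDC80 per read of NUF2. Per kilobase of annotated exon, NUF2 averaged 27.8 ± 0.4 CPM with 13.6, 15.1 ± 0.5 with 13.8 and 15.8 ± 0.5 in the controls, and NDC80 27.8 ± 1.7, 13.7 ± 0.6 and 35.7 ± 1.8 (SD, n = 3 each). The ratio of CENPQ to CENPU was 0.888 ± 0.014 with 13.6 and 0.435 ± 0.039 with 13.8, against 0.476 ± 0.049 in the controls (SD, n = 3 each). SMC2 and SMC4, the ATPase pair of condensin, stood at 0.258 ± 0.007 reads of SMC2 per read of SMC4 with 13.6 and 0.178 ± 0.007 with 13.8, against 0.198 ± 0.004 in the controls (SD, n = 3 each). These 3 pairs were chosen after their values were seen and are given as a description.

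**Figure D4:**
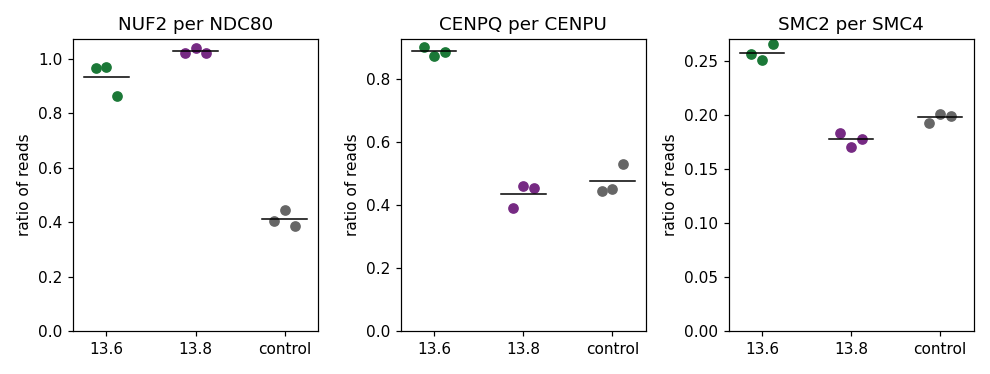
Ratio of reads within each library (points) and its mean (lines) for NUF2 per NDC80, CENPQ per CENPU and SMC2 per SMC4, with 13.6, 13.8 and the control. NUF2 per NDC80 is higher with both DsiRNAs than in the controls; CENPQ per CENPU and SMC2 per SMC4 are highest with 13.6.

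The MIS12 complex links the NDC80 rod to the inner kinetochore, and those of its genes that are among the 47 did not move together. NSL1 stood at 23.1, 23.0 and 23.6 CPM with 13.6 and 19.6, 21.7 and 21.2 CPM with 13.8, against 14.2, 14.8 and 17.4 CPM in the controls. Every DsiRNA library was above every control. NSL1 rose by 0.59 ± 0.09 with 13.6 and 0.43 ± 0.09 with 13.8 (edgeR adjusted p = 8.56e-05 and 8.33e-04), the only one of the 47 called higher with both, and the difference between the DsiRNAs was not called (0.16 ± 0.08, edgeR adjusted p = 0.123). MIS12 fell with 13.8 (−0.51 ± 0.07) and stood at −0.05 ± 0.07 with 13.6. DSN1 stood at 47.1, 46.4 and 47.5 CPM with 13.6 and 28.2, 27.4 and 24.9 CPM with 13.8, against 51.4, 55.0 and 54.9 CPM in the controls, and fell with both. The fall of DSN1 with 13.6 (−0.19 ± 0.07) was not called without control replicate 2 or any 1 of the 13.6 replicates 1, 2 and 3 (−0.20 to −0.18, edgeR adjusted p = 0.0573 to 0.0783), nor with no filter on low counts (−0.19, edgeR adjusted p = 0.0554).

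The SKA complex strengthens the hold of NDC80 on a shrinking microtubule. All 3 of its genes fell with 13.8, beside 27.9% of all tested genes. SKA3 stood at 45.5, 49.0 and 50.1 CPM with 13.6 and 15.7, 13.8 and 15.3 CPM with 13.8, against 38.5, 44.5 and 45.8 CPM in the controls. The 13.8 libraries were at about 1 part in 3 of all others. SKA3 fell by 1.52 ± 0.08 with 13.8 (edgeR adjusted p = 9.68e-09) and stood at 0.17 ± 0.08 with 13.6, which was called only without control replicate 3 (0.22, edgeR adjusted p = 0.0415). SKA1 (−0.40 ± 0.07 and −1.32 ± 0.08) and SKA2 (−0.35 ± 0.07 and −0.81 ± 0.07) fell with both.

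In the corona, the outermost layer with the motor CENP-E and the RZZ complex, all 5 genes fell with 13.8 and 3 with 13.6. Of all tested genes, 27.9% fell with 13.8 and 25.0% with 13.6. CENPF, a large protein that helps recruit dynein regulators, stood at 300.4, 271 and 293 CPM with 13.6 and 133, 99.8 and 109 CPM with 13.8, against 288, 298 and 248 CPM in the controls. Only the 13.8 libraries stand apart (−1.29 ± 0.10 with 13.8, 0.05 ± 0.10 with 13.6). The microtubule motor CENPE (−0.59 ± 0.07 with 13.8) had nearly equal means with 13.6 and in the controls, 69.3 ± 5.3 and 69.2 ± 4.4 CPM (SD, n = 3 each). ZWINT, which ties the RZZ complex to the kinetochore, fell with both, to 87.7 ± 4.8 CPM with 13.6 and 65.7 ± 1.6 CPM with 13.8, against 149.6 ± 12.1 CPM in the controls (SD, n = 3 each). KNTC1, the ROD subunit of RZZ, fell as well (−0.39 ± 0.09 and −0.91 ± 0.09). ZWILCH, another RZZ subunit, stood at −0.15 ± 0.06 with 13.6 and −0.30 ± 0.06 with 13.8. The call of ZWILCH with 13.6 was lost without control replicate 2 or 3, without any 1 of the 13.6 replicates 1, 2 and 3, without 13.8 replicate 2 or 3, with no filter on low counts, or in a fit of 13.6 and control alone (−0.17 to −0.13, edgeR adjusted p = 0.0561 to 0.135). Its call of 13.6 against 13.8 (0.15 ± 0.06) was lost without any 1 of the 13.6 replicates 1, 2 and 3 or without 13.8 replicate 2 or 3 (0.13 to 0.16, edgeR adjusted p = 0.0593 to 0.13).

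All 5 spindle checkpoint genes fell with 13.8, beside 27.9% of all tested genes, with a median of −1.14 over the 5. TTK, the kinase MPS1 that starts checkpoint signalling, stood at 95.5, 88.5 and 90.7 CPM with 13.6 and 39.3, 37.7 and 37.3 CPM with 13.8, against 92.2, 87.3 and 94.1 CPM in the controls. The 13.6 libraries overlapped the controls (0.01 ± 0.06), and the 13.8 libraries were below them all (−1.26 ± 0.06, edgeR adjusted p = 2.82e-09). MAD2L1, the checkpoint effector MAD2, followed the same pattern (0.06 ± 0.07 with 13.6, −0.95 ± 0.07 with 13.8), as did BUB3 (0.04 ± 0.05 and −0.52 ± 0.05). The kinases BUB1 (−0.24 ± 0.09 and −1.30 ± 0.09) and BUB1B, which encodes BUBR1 (−0.28 ± 0.07 and −1.14 ± 0.08), fell with both. For BUB1 with 13.6 the call was lost without control replicate 2 or any 1 of the 13.6 replicates 1, 2 and 3 (−0.26 to −0.19, edgeR adjusted p = 0.0576 to 0.122). All 5 genes were higher with 13.6 than with 13.8, by 0.57 to 1.26, where 30.9% of all tested genes were higher.

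The chromosomal passenger complex and the shugoshins, which protect centromeric cohesin, all fell with 13.8, where 27.9% of all tested genes fell. Their median was −1.50 over 6 genes, next to the −1.50 of CENPA and HJURP. AURKB, the kinase of the complex, stood at 61.9, 70.2 and 70.2 CPM with 13.6 and 26.0, 22.9 and 24.1 CPM with 13.8, against 76.0, 93.4 and 81.3 CPM in the controls. All DsiRNA libraries were below the controls, and those of 13.8 were below those of 13.6. AURKB fell by 70.9% with 13.8 (−1.78 ± 0.09, edgeR adjusted p = 4.01e-09), the largest fall among the 47, and by 19.3% with 13.6 (−0.31 ± 0.08, edgeR adjusted p = 0.00827). BIRC5, which encodes survivin, stood at 58.7, 68.5 and 69.8 CPM with 13.6 and 36.8, 36.6 and 37.8 CPM with 13.8, against 103, 111 and 121 CPM in the controls. INCENP, the scaffold of the complex, fell by 0.79 ± 0.11 with 13.6 and 1.40 ± 0.11 with 13.8, and CDCA8, which encodes borealin, by 0.36 ± 0.06 and 1.40 ± 0.06. So within 1 complex the falls with 13.6 ran from −0.79 in INCENP to −0.31 in AURKB, and those with 13.8 from −1.78 in AURKB to −1.40 in INCENP and CDCA8. SGOL1 fell by 0.26 ± 0.09 with 13.6 and 1.59 ± 0.09 with 13.8, and SGOL2 fell by 1.23 ± 0.07 with 13.8. With 13.6 SGOL2 stood at −0.16 ± 0.07, which was called only under scaling by library totals (−0.19, edgeR adjusted p = 0.0325) or with a replicate block (−0.16, edgeR adjusted p = 0.0311). The call of SGOL1 with 13.6 was lost without control replicate 1 or 2 or any 1 of the 13.6 replicates 1, 2 and 3 (−0.27 to −0.22, edgeR adjusted p = 0.0589 to 0.0891).

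Of the condensin I genes all 5 fell with 13.8 and 2 with 13.6, beside 27.9% and 25.0% of all tested genes. NCAPG, a HEAT-repeat subunit, stood at 67.5, 65.9 and 76.4 CPM with 13.6 and 52.0, 41.1 and 47.8 CPM with 13.8, against 120, 133 and 119 CPM in the controls. Both DsiRNA groups were below every control (−0.83 ± 0.09 and −1.40 ± 0.09, edgeR adjusted p = 5.55e-06 and 3.3e-08). The other HEAT-repeat subunit, NCAPD2, stood at 138, 133 and 131 CPM with 13.6 and 78.8, 64.5 and 66.7 CPM with 13.8, against 128, 136 and 107 CPM in the controls. Its 13.6 libraries overlapped the controls (0.12 ± 0.09), and it fell with 13.8 (−0.82 ± 0.09). SMC2 stood at 101, 90.8 and 102 CPM with 13.6 and 42.2, 36.8 and 39.0 CPM with 13.8, against 93.5, 89.4 and 88.7 CPM in the controls. It fell with 13.8 (−1.20 ± 0.07) and stood at 0.11 ± 0.07 with 13.6, while its partner SMC4 fell with both (−0.27 ± 0.06 and −1.05 ± 0.06). NCAPH, the kleisin that closes the ring, fell with 13.8 (−1.25 ± 0.07) and stood at −0.13 ± 0.07 with 13.6.

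CENPJ, despite its name, encodes a centriole protein, and it was the second gene called in opposite directions. It stood at 24.6, 22.9 and 23.5 CPM with 13.6 and 13.2, 13.9 and 12.1 CPM with 13.8, against 18.7, 19.4 and 18.6 CPM in the controls. None of the 3 groups overlapped. CENPJ rose by 0.32 ± 0.08 with 13.6 and fell by 0.53 ± 0.08 with 13.8, and the difference was 0.86 ± 0.08 (edgeR adjusted p = 0.00306, 6.09e-05 and 6.06e-07).

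**Figure D5:**
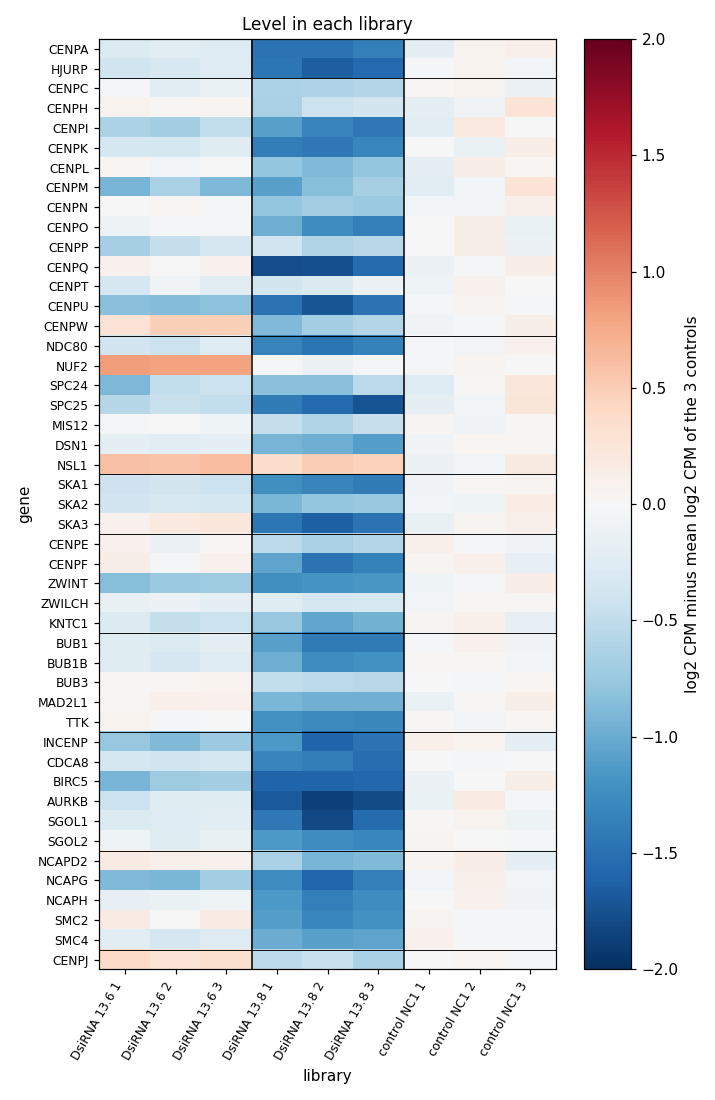
Log2 CPM of each of the 47 genes (rows, by complex) in each of the 9 libraries (columns: 13.6, 13.8, control), minus the mean of the 3 controls, from −2 (blue) to 2 (red). The 13.8 columns are blue in nearly every row, the 13.6 columns are pale with a few blue rows (CENPM, CENPU, ZWINT, INCENP, BIRC5, NCAPG) and red rows for NUF2, NSL1, CENPW and CENPJ.

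Levels of different genes were compared per kilobase of annotated exon. In the controls ZWINT (72.5 ± 5.9 CPM per kilobase), SMC4 (69.9 ± 3.4) and AURKB (63.5 ± 6.8) were the most abundant, and these 3 do not differ beyond about their spread. The lowest by this measure were CENPP (0.758 ± 0.063) and CENPC (2.35 ± 0.15), given as SD with n = 3 each. With 13.8, AURKB stood at 18.5 ± 1.2 CPM per kilobase, below ZWINT at 31.9 ± 0.8 and SMC4 at 33.8 ± 1.1 (SD, n = 3 each). Exon lengths come from GENCODE v29 on GRCh38, while the counts rest on hg19. The lengths merge all annotated exons of a gene, which gives 9794 bases for CENPP and 6940 for CENPC. The order of genes therefore depends on the transcripts annotated as well as on their RNA.

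Other kinetochore genes, listed apart from the 47, mostly fell with 13.8 as well. Of 23 listed, 22 were tested and CENPV was not. With 13.8, 16 fell and 3 rose (median −0.80), 72.7% and 13.6% of those tested beside 27.9% and 27.5% of all tested genes. With 13.6, 8 fell and 2 rose (median −0.08), 36.4% and 9.09% beside 25.0% and 24.9%. Between the DsiRNAs 17 were higher with 13.6 and 2 lower (median 0.63), 77.3% and 9.09% beside 30.9% and 30.2%. OIP5, part of the MIS18 complex that readies centromeres for new CENP-A, stood at 24.2 ± 1.5 CPM with 13.6 and 5.04 ± 0.91 CPM with 13.8, against 19.7 ± 2.6 CPM in the controls (SD, n = 3 each). It fell by 1.97 ± 0.13 with 13.8, more than any of the 47. With 13.6 OIP5 stood at 0.29 ± 0.12, which was not called in the main fit (edgeR adjusted p = 0.0548) but was called in several alternatives given below. NCAPD3 of condensin II (−0.80 and −1.91), the histone kinase GSG2, now named HASPIN (−0.72 and −1.17), SPDL1 (−0.42 and −0.85), KIF2C, a microtubule depolymerase (−0.36 and −1.65), and SPAG5 (−0.19 with 13.6, not called, and −1.36) were lower. CASC5, which encodes KNL1, the third part of the outer kinetochore, rose by 0.26 ± 0.07 with 13.6 and fell by 1.19 ± 0.07 with 13.8; the checkpoint gene ZW10 stood at 0.17 ± 0.09 and fell by 1.26 ± 0.09. CENPB, which binds a motif in alpha-satellite DNA, went the other way, at 126 ± 10 CPM with 13.6 and 198 ± 15 CPM with 13.8, against 164 ± 11 CPM in the controls (SD, n = 3 each). It fell by 0.38 ± 0.08 with 13.6 and rose by 0.27 ± 0.08 with 13.8, a rise not called without 13.8 replicate 3 (0.23, edgeR adjusted p = 0.0523). MAD1L1 rose with 13.8 (0.25 ± 0.06) and was lower with 13.6 than with 13.8 (−0.38 ± 0.06).

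APITD1 (0.60 ± 0.22) rose with 13.8, a call that did not hold when control replicate 1 or 2, or 13.8 replicate 1 or 3, was left out or with no filter on low counts (0.51 to 0.59, edgeR adjusted p = 0.0626 to 0.104). MAD2L1BP, which encodes p31comet, an antagonist of MAD2, rose with 13.6 (0.26 ± 0.09), a call that did not hold when control replicate 1 or 2, or 13.6 replicate 2 or 3, was left out (0.18 to 0.24, edgeR adjusted p = 0.0886 to 0.13). OIP5 with 13.6 was called higher by DESeq2 (adjusted p = 0.0452) and limma-voom (adjusted p = 0.0306), and by edgeR without control replicate 3 (0.41, adjusted p = 0.00709). It was also called higher by edgeR without 13.8 replicate 2 or 3, with no filter, in a fit of 13.6 and control alone and with a replicate block (0.29 to 0.30, edgeR adjusted p = 0.0329 to 0.0475). SPAG5 with 13.6 was called lower without control replicate 3 (−0.25, edgeR adjusted p = 0.0421).

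A short word search in 3′ UTRs adds sequence context. An earlier search of these same data had singled out the 7-base words GCTCTGT (lower with 13.6), GATTAAC (higher with 13.6) and AACTGTC (lower with 13.8), so their presence in a gene supports nothing on its own. Among the 3′ UTRs of coding transcripts in GENCODE v29, 4 of the 47 genes held GCTCTGT (8.5%, against 19.1% of 19113 genes), 2 held GATTAAC (4.3%, against 5.4%) and 3 held AACTGTC (6.4%, against 10.2%). The sites below are all those found in the 47 genes, shown so that holders of each word can be set beside their values, with the word in capitals and 11 bases on either side.
CENPC, GCTCTGT: aatgtctggctGCTCTGTtgctcttcaag
INCENP, GCTCTGT: ctgcagacagtGCTCTGTaaatagttgtt
NCAPG, GCTCTGT: tctgtttgttgGCTCTGTgttctcctgtg
NSL1, GCTCTGT: gaccgggctcgGCTCTGTtgttgcacaga
NSL1, GATTAAC: taggtttgtgaGATTAACtttaggatttt
CENPF, GATTAAC: atctggtgatgGATTAACatatagccttt
CDCA8, AACTGTC: ggccacagaatAACTGTCtctaagctatc
SKA3, AACTGTC: tcttgtcagaaAACTGTCaccaaaacaaa
CENPP, AACTGTC: cctcatctttaAACTGTCcttagtagccc
CENPP, AACTGTC: aacaattcaccAACTGTCcataaaacccc
CENPP, AACTGTC: acaatgctcacAACTGTCtcctctacaga

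Of the 4 genes with GCTCTGT, INCENP (−0.79) and NCAPG (−0.83) fell with 13.6, CENPC (−0.13) was not called and NSL1 (0.59) rose. Of the 2 with GATTAAC, NSL1 rose with 13.6 and CENPF (0.05) was not called. NSL1 thus holds both words, but in different transcripts, each word in 1 of the 4 that were searched. A gene was counted when any of its searched transcripts held the word. CENPU and CENPM fell as much with 13.6 and hold none of the words. In NUF2 the word GATTAAC begins 2 bases before the 3′ UTR, in the stop codon TGA, and was not counted. With 13.8 the 3 genes with AACTGTC, SKA3 (−1.52), CDCA8 (−1.40) and CENPP (−0.52), had a median log2 fold change of −1.40. The 44 without it had a median of −1.16 (−1.78 to 0.43). These values are a description, and the part of any word in a change was not tested.

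Some counts may hold reads of a neighbour. By GENCODE v29, 11 of the 47 genes have an exon that overlaps one of another gene on the opposite strand (CENPN, CENPO, CENPP, CENPT, CENPU, ZWILCH, MAD2L1, SGOL1, NCAPD2, NCAPG and SMC4), and the strand setting of the counting is not given in the sources used here. BUB1B shares exons with the read-through gene BUB1B-PAK6 on its own strand.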

How the data were processed

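The authors processed the reads to counts per gene. Among the tools they list are STAR, HTSeq, cutadapt, DESeq2 and FastQC, with the build hg19, per the submitters' processing notes. The role of each tool, its version, the annotation and the strandedness are each not given in the sources used here. Only the deposited raw counts were used, as whole reads per entry, with entries named by gene symbol. Of 25398 entries, 16 exact repeats were removed. In R 4.3.3 and edgeR 4.0.16, filterByExpr (at least 10 reads) kept 14731 genes with 99.97% of the reads, libraries were scaled by TMM, and a robust quasi-likelihood model with 1 mean per group was fitted to all 9 libraries (6 residual degrees of freedom). SEs were taken as the log2 fold change over the root of F. All p-values are two-sided and adjusted over all tested genes. Alternatives were DESeq2 1.42.0, limma-voom (limma 3.58.1), other scalings, filters and thresholds, a replicate block, and leaving out each library. The fit was tested on simulated data. The 47 genes, the complexes, the other lists and the rule for named genes were chosen with earlier results of these data known: all 47 genes, TBX3, and up to 4 called genes in each direction of the other kinetochore list. Values per library are given for the largest changes, the genes that moved in opposite directions and at least 1 gene per complex.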

Additional observations from a re-analysis of the deposited data

Results flagged for a closer look

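The 2 DsiRNAs against the same target differed in their effect on these genes, by the test of the difference itself: 42 of the 47 were higher with 13.6 than with 13.8 by edgeR's quasi-likelihood test. CENPW was called higher with 13.6 and lower with 13.8, with a difference of 1.12 on the log2 scale. CENPJ was likewise called in opposite directions, with a difference of 0.86. TBX3 itself differed by 0.26 ± 0.07 between the DsiRNAs, higher with 13.6. Whether that difference in TBX3 plays a part was not tested.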

How the results depend on the processing

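The counts of kinetochore genes called stayed within 1.5 times the main count under DESeq2, limma-voom, DESeq2 size factors, library totals, no filter, a mean of at least 50 reads, only the groups compared (not run for the mean of both), an adjusted p under 0.01 and the replicate block. Leaving out 1 library at a time gave 20 to 25 genes lower and 4 to 5 higher with 13.6, 44 to 45 lower and 1 higher with 13.8, and 41 to 42 higher and 0 lower between the DsiRNAs. For the mean of both it gave 41 to 43 lower and 2 higher. Of the single calls, 8 genes gained or lost theirs with 13.6 under some alternative, 1 with 13.8 (CENPT), 1 between the DsiRNAs (ZWILCH) and 3 in the mean of both; 0 were reversed. The labels state no link between same-numbered libraries, and whether they were handled together is not given. The correlations of their deviations ran from −0.179 to 0.187, and 5 of 9 libraries correlated best with their own number. Over all tested genes the replicate block gave 8010 called with 13.6, 8803 with 13.8 and 9581 between the DsiRNAs. Without it these counts were 7357, 8169 and 8995. The main fit uses no block, and a shared replicate effect was not tested further. With the replicate block 27 genes were lower with 13.6, 45 with 13.8 and 44 in the mean of both. Between the DsiRNAs ZWILCH was not called under library totals (0.10, edgeR adjusted p = 0.143) or over genes averaging 50 reads or more (0.12, edgeR adjusted p = 0.076). Counts were low for SPC24 and CENPP, down to 187 and 193 reads in 13.6 replicate 1. The exact permutation test of 3 libraries against 3 cannot go below p = 0.1.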
